A study of Mus musculus with 73 samples.

Results

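The MHC class II presentation genes were described across single lung macrophages. The 8 genes were chosen by name from the 23994 genes of the expression table: Cd74, H2-Aa, H2-Ab1, H2-Eb1, H2-DMa, H2-DMb1, H2-DMb2 and Ciita. All 73 cells came from 1 mouse on the B6 background that carried Csf1r-GFP, a green fluorescent reporter of the Csf1r gene. The animal was a 10-week adult, and its right lung lobes were taken 7 days after the left lobe had been removed (pneumonectomy). Cells were sorted on CD45, CSF1R-GFP and F4/80, with Ly6G named in the labels without a sign, and were captured on a Fluidigm C1 chip. There was 1 group and 1 animal, so cells are not replicates, no p-value was computed, and every number describes these cells only. Cells without surgery were not analysed here. Cells are called by the number in their label.

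Class II molecules are pairs of an alpha and a beta chain that hold peptides from engulfed proteins at the cell surface, where CD4 T cells read them. The invariant chain, Cd74, guides new pairs to the endosome and blocks their groove. The H2-DM heterodimer, built from H2-DMa and a beta chain from H2-DMb1 or H2-DMb2, removes the last fragment of Cd74 and lets peptides bind. Ciita is the transactivator that these genes depend on, and it acts through RFX, CREB1 and NF-Y proteins bound to shared promoter boxes. Dendritic cells and B cells hold class II at high levels, and macrophages vary in it, with alveolar macrophages of the mouse usually low.

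A value of at least 1 FPKM (fragments per kilobase of transcript, scaled for the depth of the cell) was called detected. Estimated mouse fragments ran from 347003 to 3485925 per cell, with a median of 1408833. Between 1044 and 3745 genes were detected per cell, with a median of 2290, and 6151 genes were detected in at least 8 cells. Of the 8 class II genes 6 were among these, and H2-DMb2 and Ciita were not. The sort genes Ptprc (CD45), Csf1r and Emr1 (F4/80) were detected in 69, 65 and 41 of the 73 cells. Cells 2 and 54 each held at least 3 of 7 endothelial markers at 10 FPKM or more, so the values that moved most without them are given beside the results. In the other 71 cells, counts of cells with a member detected were the same or smaller by 1 or 2. They were 51 for Cd74, 23 for H2-Aa, 24 for H2-Ab1, 20 for H2-Eb1, 46 for H2-DMa, 29 for H2-DMb1, 3 for H2-DMb2 and 6 for Ciita.

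In the mm10 build 6 of the 8 genes lie together on chromosome 17, within 197134 bases. H2-DMa (chr17:34119541-34139101), H2-DMb2 (chr17:34143307-34151555) and H2-DMb1 (chr17:34153072-34160230) lie on the plus strand, as do H2-Ab1 (chr17:34257689-34269419) and H2-Eb1 (chr17:34305867-34316674). H2-Aa (chr17:34282744-34287823) lies on the minus strand. Ciita (chr16:10480059-10528418, plus strand) and Cd74 lie elsewhere, and all 8 are annotated as protein-coding. Exons of H2-DMa overlap those of Brd2, and exons of Ciita overlap those of Dexi, each on the opposite strand. The library kits do not mark strand, so reads of those overlaps cannot be told apart. Brd2 was detected in 46 cells, with a Spearman rho of 0.08 and a Pearson r of 0.09 to H2-DMa over the 73 cells. Dexi was detected in 1 cell, which also held Ciita. Its rho to Ciita was 0.42 (r 0.40), resting on very few cells. The part of the overlaps in these values was not tested.

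The promoters are shown because shared letters upstream of these genes are the known basis of their joint regulation. RefSeq entries on GRCm38.p6 were found for 5 of the 8 genes, 6 entries in all, with 2 for H2-DMa. The 200 bases before the start site are given 5′ to 3′ on the gene's strand. Capitals mark TGATTGG (reverse complement CCAATCA, an inverted CCAAT box), TGACGTCA (its own reverse complement, the letters of a cyclic AMP response element) and GATGATGC (reverse complement GCATCATC). These letters were chosen after the sequences had been read.
H2-Aa: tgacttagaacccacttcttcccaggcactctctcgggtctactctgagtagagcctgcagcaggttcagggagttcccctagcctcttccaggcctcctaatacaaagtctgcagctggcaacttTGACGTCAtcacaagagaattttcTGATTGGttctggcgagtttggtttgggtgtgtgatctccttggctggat
H2-Eb1: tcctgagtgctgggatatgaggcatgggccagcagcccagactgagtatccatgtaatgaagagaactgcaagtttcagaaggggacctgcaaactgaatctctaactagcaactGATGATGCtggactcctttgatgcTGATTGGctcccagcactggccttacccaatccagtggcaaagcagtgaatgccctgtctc
H2-DMb1: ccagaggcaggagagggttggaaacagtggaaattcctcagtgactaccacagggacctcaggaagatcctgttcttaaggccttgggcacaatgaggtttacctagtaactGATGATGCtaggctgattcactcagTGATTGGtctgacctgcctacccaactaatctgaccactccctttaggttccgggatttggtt
H2-DMb2: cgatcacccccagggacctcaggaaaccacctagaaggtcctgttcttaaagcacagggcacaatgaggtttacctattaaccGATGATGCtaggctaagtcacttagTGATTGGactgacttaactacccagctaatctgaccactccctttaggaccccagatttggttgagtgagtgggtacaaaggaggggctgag
H2-DMa: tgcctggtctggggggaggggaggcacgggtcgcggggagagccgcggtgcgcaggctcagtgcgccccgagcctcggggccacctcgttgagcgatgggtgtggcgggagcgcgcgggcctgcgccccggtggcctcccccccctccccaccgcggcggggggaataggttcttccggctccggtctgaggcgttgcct
The H2-Aa line is chr17:34287824-34288023 on the minus strand, H2-Eb1 is chr17:34305667-34305866, H2-DMb1 is chr17:34152991-34153190, H2-DMb2 is chr17:34145049-34145248 and H2-DMa is chr17:34122632-34122831, the last 4 on the plus strand.

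TGATTGG started 50 bases before the start site in H2-Aa, 61 in H2-Eb1, 63 in H2-DMb1 and 92 in H2-DMb2. It followed GATGATGC after 16 bases in H2-Eb1 and after 17 bases in H2-DMb1 and H2-DMb2. In H2-Aa it followed TGACGTCA after 16 bases. No match overlapped another. On either strand TGATTGG was found in 7.23% of 32851 promoter entries, counted over 250 bases before the start, TGACGTCA in 1.55% and GATGATGC in 0.575%. TGATTGG and GATGATGC occurred together in 14 entries (0.0426%). Neither H2-DMa entry held any of these letters in its window. Both of its windows lie inside the gene's annotated span. The bases before other starts of H2-DMa were not searched, so the letters may lie there. A match describes letters only, and no binding was measured.

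Cd74, the invariant chain, was the most widespread and most abundant of the 8. Its gene lies on another chromosome (chr18:60803848-60812652, plus strand). It was detected in 52 of 73 cells (71.2%, exact Clopper-Pearson 95% interval 59.4 to 81.2, covering counting error only). Its FPKM ran from 0 through a median of 94.9 to 64822 in cell 11, with a mean of 3825 ± 11166 (SD over 73 cells). Of the cells, 21 lay under 1 FPKM, 16 between 1 and 100, and 36 at 100 or more. Cd74 therefore filled the middle range, and the widest step between neighbouring detected cells was small, 1.39 to 4.05 FPKM.

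The 3 chains were found in far fewer cells and were mostly either near 0 or high. H2-Aa, the alpha chain of I-A, was detected in 25 cells (34.2%, 23.5 to 46.3), with a median of 0 and a highest value of 22039 FPKM in cell 11. It was under 1 FPKM in 48 cells, between 1 and 100 in 5 and at 100 or more in 20. No cell lay between 13.05 and 120 FPKM. H2-Ab1, the beta chain of I-A, was detected in 25 cells as well, with a median of 0 and a highest value of 14233 FPKM, also in cell 11. It was under 1 FPKM in 48 cells, between 1 and 100 in 3 and at 100 or more in 22, with no cell between 12.3 and 153 FPKM.

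H2-Eb1, the beta chain of I-E, was detected in 21 cells (28.8%, 18.8 to 40.6), with a median of 0 and a highest value of 5954 FPKM in cell 95. It was under 1 FPKM in 52 cells, between 1 and 100 in 5 and at 100 or more in 16. B6 mice lack a functional I-E alpha gene, so this chain has no partner at their cell surface. The row of that gene's remnant, H2-Ea-ps, reached 1 FPKM in a single cell, cell 95, at 1.01. Among cells under 1 FPKM, H2-Aa was above 0 in 10, H2-Ab1 in 11 and H2-Eb1 in 12. Such values came from very few fragments: H2-Aa had exactly 1 estimated fragment in 10 cells, and H2-Ab1 and H2-Eb1 in 11 each. The origin of single fragments was not tested.

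The peptide editor was split between a widespread and a rarer subunit. H2-DMa, the alpha chain of the editor, was detected in 47 cells (64.4%, 52.3 to 75.3), with a median of 17.8 and a highest value of 1268 FPKM in cell 32. It was spread evenly, with 26 cells under 1 FPKM, 24 between 1 and 100 and 23 at 100 or more. H2-DMb1, its beta chain, was detected in 30 cells (41.1%, 29.7 to 53.2), with a median of 0 and a highest value of 622 FPKM in cell 25. H2-DMb1 was under 1 FPKM in 43 cells, between 1 and 100 in 14 and at 100 or more in 16. Both subunits were detected together in 26 cells, which is 55.3% of the H2-DMa cells and 86.7% of the H2-DMb1 cells.

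H2-DMb2, the second beta chain gene, was detected in 3 cells only (4.11%, 0.856 to 11.5), at 74.7 FPKM in cell 25, 90.3 in cell 50 and 140 in cell 95. Of its 50-base words, 21.2% were also found in H2-DMb1 transcripts, and fragments from such stretches could be split between the 2 genes. Ciita, the regulator, was detected in 7 cells (9.59%, 3.94 to 18.8). Its values were 294 FPKM in cell 11, 32.2 in cell 64, 29.4 in cell 84, 19.97 in cell 42, 18.9 in cell 75, 6.41 in cell 54 and 1.06 in cell 30. Most cells with high class II chains therefore had no detected Ciita transcript at this depth.

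By mean FPKM the order was Cd74, H2-Aa (1350 ± 3638), H2-Ab1 (909 ± 2539), H2-Eb1 (363 ± 1047), H2-DMa (152 ± 275), H2-DMb1 (76.2 ± 153), Ciita (5.51 ± 34.7) and H2-DMb2 (4.18 ± 21.1). Each SD over cells was larger than its mean. The genes were measured in the same cells, so these SDs do not tell whether neighbours in this order differ. Ratios within cells are given below. Few cells carried the means: the 5 highest cells held 69.5% of the summed FPKM of Cd74, 66.1% of H2-Aa, 70.4% of H2-Ab1 and 69.1% of H2-Eb1.

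**Figure D1:**
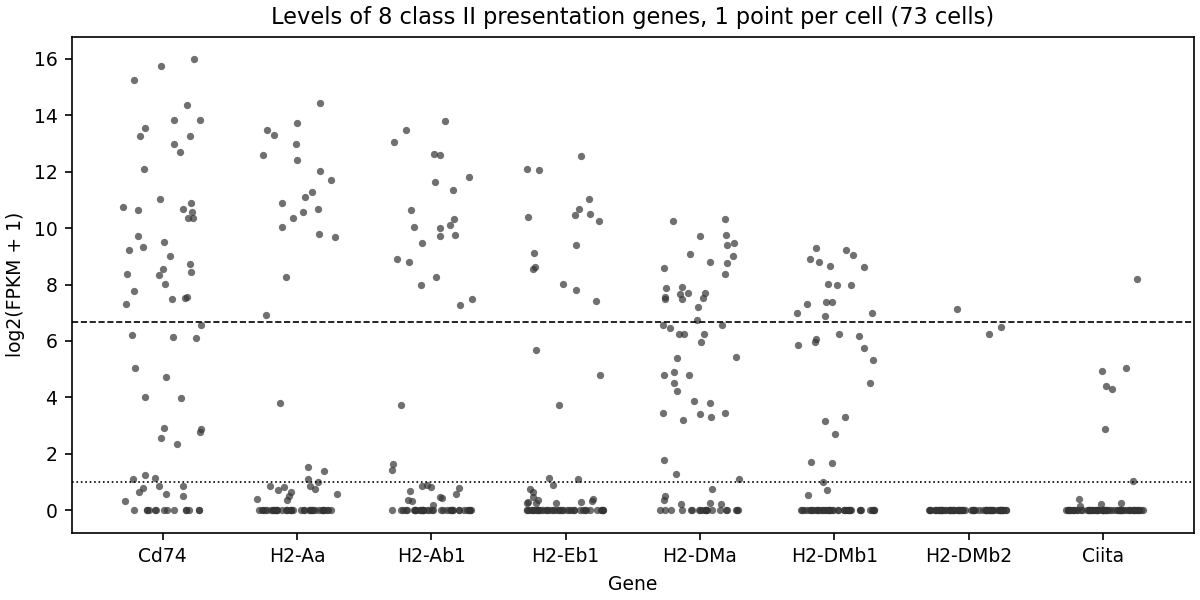
Level of each of the 8 class II presentation genes, as log2(FPKM + 1), with 1 point per cell for 73 cells. The dotted line marks 1 FPKM and the dashed line 100 FPKM. H2-Aa, H2-Ab1 and H2-Eb1 have 5, 3 and 5 cells between the lines, against 16 for Cd74 and 24 for H2-DMa.

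Bimodality was described on the log2(FPKM + 1) scale by the best split and by Sarle's coefficient, with the share of high cells given as well. Each was set beside the 6151 genes detected in at least 8 cells. The best split into a low and a high set took up 95.2% of the variance of H2-Aa, 94.2% of H2-Ab1, 92.6% of H2-Eb1 and 91.4% of H2-DMb1. It took up 82.0% for H2-DMa and 79.7% for Cd74. The median over all 6151 genes was 84.4%, and the middle 90% ran from 69.5 to 92.1%, so on-off patterns were common in these cells. H2-Aa, H2-Ab1 and H2-Eb1 lay above that range, and the other 3 inside it.

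Sarle's coefficient, which grows as values gather at the ends, was 0.88 for H2-Aa, 0.87 for H2-Eb1, 0.85 for H2-Ab1 and 0.81 for H2-DMb1. It was 0.64 for H2-DMa and 0.57 for Cd74, beside a median of 0.81 and a range of 0.56 to 0.90 over all genes. By this coefficient all 6 lay inside the range of other genes. The share of detected cells at 100 FPKM or more also rises with the level of a gene, so it does not by itself describe an on-off pattern. It was 88.0% for H2-Ab1, 80.0% for H2-Aa, 76.2% for H2-Eb1 and 69.2% for Cd74, beside a median of 16.7% and a 95th percentile of 68.2% over all genes. It was 53.3% for H2-DMb1 and 48.9% for H2-DMa. Cd74, with the lowest split share and Sarle coefficient of the 6, thus passed that percentile together with the chains.

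The mean of log2(FPKM + 1) over Cd74, H2-Aa, H2-Ab1 and H2-Eb1 is called the class II core level. It ran from 0 to 14.08, with a median of 1.99. Of the cells, 51 lay under 3, 6 between 3 and 8, and 16 at 8 or more. The best split, at 6.09, put 54 cells below and 19 above and took up 86.6% of the variance. That share and a Sarle coefficient of 0.78 were near the medians over all 6151 genes, 84.4% and 0.81. The core level is a mean over 4 genes and those medians are of single genes. The comparison therefore cannot tell whether the set was more or less split than a typical gene. The widest empty stretch lay between 4.01 in cell 2 and 5.66 in cell 26, a gap of 1.65. Without cells 2 and 54 it lay between 2.80 in cell 31 and 5.66 in cell 26, a gap of 2.86. Few cells thus lay between the low and the high ones, and the low side itself was graded through Cd74.

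Counting genes gave the same picture. At 1 FPKM, 19 cells held none of the 4 core genes, 26 held 1, 5 held 2, 5 held 3 and 18 held all 4. At 100 FPKM these counts were 34, 18, 2, 4 and 15. All 26 cells with exactly 1 gene detected at 1 FPKM held Cd74. Cells with 2 or 3 of the genes were few at either threshold. The number with all 4 detected moved little with the threshold, from 20 cells at any value above 0 to 15 cells at 100 FPKM.

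**Figure D2:**
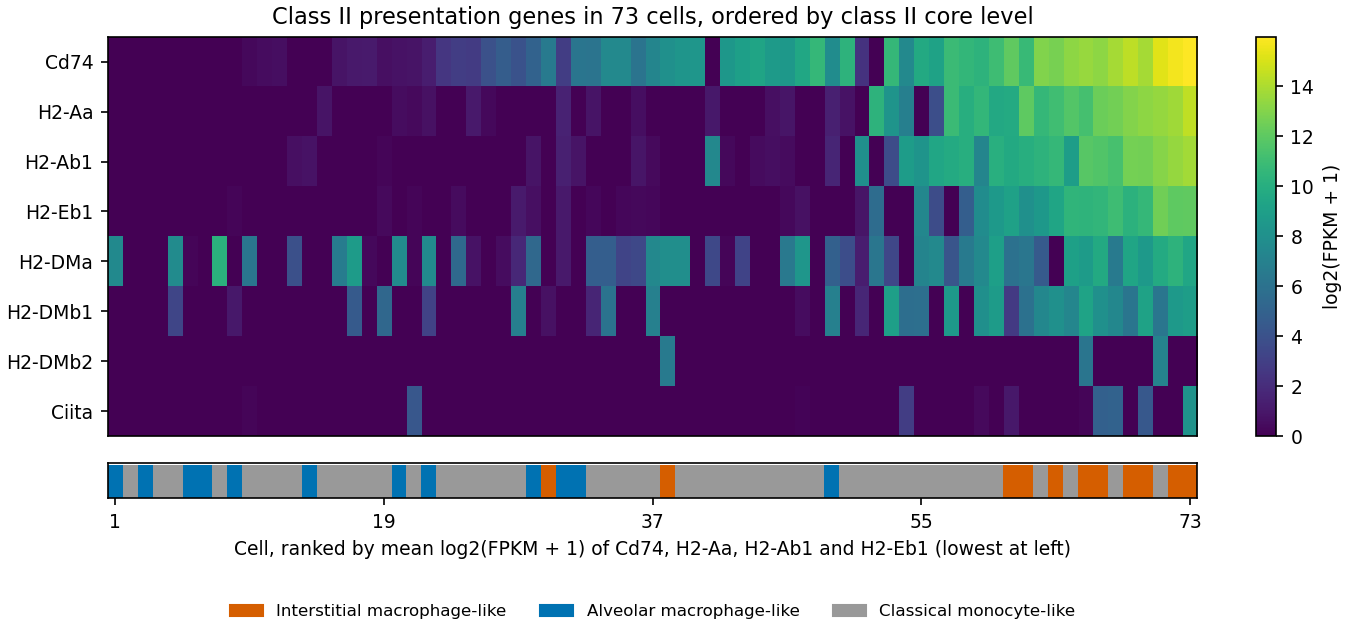
Levels of the 8 genes as log2(FPKM + 1) (colour) in 73 cells, ranked from the lowest class II core level at left to the highest at right. The strip below gives each cell's cluster. The 3 chains come on together at the right end, while Cd74 is graded and H2-DMa is present across the whole range.

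The 3 chains went together. All 3 were at 100 FPKM or more in 15 cells and all 3 under 1 FPKM in 45, which left 13 cells in neither state. H2-Aa and H2-Ab1 were detected together in 23 cells, where the product of their shares would give 8.56 cells. H2-Aa and H2-Eb1 were detected together in 19 cells, where the product would give 7.19.

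Cd74 was high wherever the chains were high, and was also found without them. In the 15 cells with all 3 chains at 100 FPKM or more, Cd74 was at least 1305 FPKM, with a median of 9897 and a highest value of 64822. In the 45 cells with all 3 chains under 1 FPKM, Cd74 was still detected in 26 and reached 100 FPKM in 14, where it ran from 157 to 1624 with a median of 359. Cells with Cd74 at that level and no chain were thus about as many as cells with the whole set. H2-DMa was likewise detected in 22 of those 45 cells, in 11 of them at 100 FPKM or more. H2-DMb1 was detected in 8 of the 45, and Ciita in 1. Of the 15 cells with all 3 chains high, 14 held H2-DMa, 15 held H2-DMb1 and 5 held Ciita.

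A minority of cells broke the pattern. At least 1 chain reached 100 FPKM in 24 cells, and in 7 of these another chain was under 1 FPKM. Cell 86 had 1917 FPKM of H2-Aa and 866 of H2-Ab1, with H2-Eb1 at 0. Cell 71 had 311 FPKM of H2-Ab1 and 170 of H2-Eb1, with H2-Aa at 0. Cell 26 had 308 FPKM of H2-Aa and 12.3 of H2-Ab1, with H2-Eb1 at 0. These 3 cells each lacked 1 chain while Cd74 was high, at 1900 FPKM in cell 86, 836 in cell 71 and 1579 in cell 26.

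Cell 31 had 251 FPKM of H2-Ab1, with H2-Aa at 0 and Cd74 at 4.05. Cell 20 had 178 FPKM of H2-Ab1 with Cd74 at 0, and cell 2 had 1310 FPKM of H2-Aa with Cd74 and H2-Ab1 at 0. Cells 2 and 20 were the only 2 of the 24 with Cd74 under 1 FPKM (1 of 22 without cells 2 and 54). Cell 54 had 120 FPKM of H2-Aa and 447 of H2-Ab1, with H2-Eb1 at 0. Without cells 2 and 54, which held endothelial markers, 5 such cells remained.

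Across the 73 cells the 6 pairs among the core genes had Spearman rho from 0.62 to 0.75, with a median of 0.68, and Pearson r from 0.73 to 0.90. These correlations describe cells that share 1 mouse, 1 chip and their depth. Over all 18914325 pairs of the 6151 genes the median rho was 0.04. H2-Aa with H2-Ab1 had the highest rho, 0.75 (r 0.90), and the other chain pairs had 0.71 for H2-Ab1 with H2-Eb1 and 0.65 for H2-Aa with H2-Eb1. Cd74 had rho from 0.62 to 0.70 with the chains (r 0.73 to 0.74).

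The editor subunits differed in how closely they followed. H2-DMb1 had rho from 0.59 to 0.64 with the 4 core genes (r 0.65 to 0.75), and H2-DMa from 0.38 to 0.52 (r 0.45 to 0.56). Between the editor's subunits rho was 0.46 (r 0.47), below every value of H2-DMb1 with a core gene. Ciita had rho from 0.33 to 0.40 with the core genes and H2-DMb2 from 0.08 to 0.28 with the other 7 genes, each resting on the few cells named above. Over all 28 pairs the median rho was 0.41 (r 0.46).

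**Figure D3:**
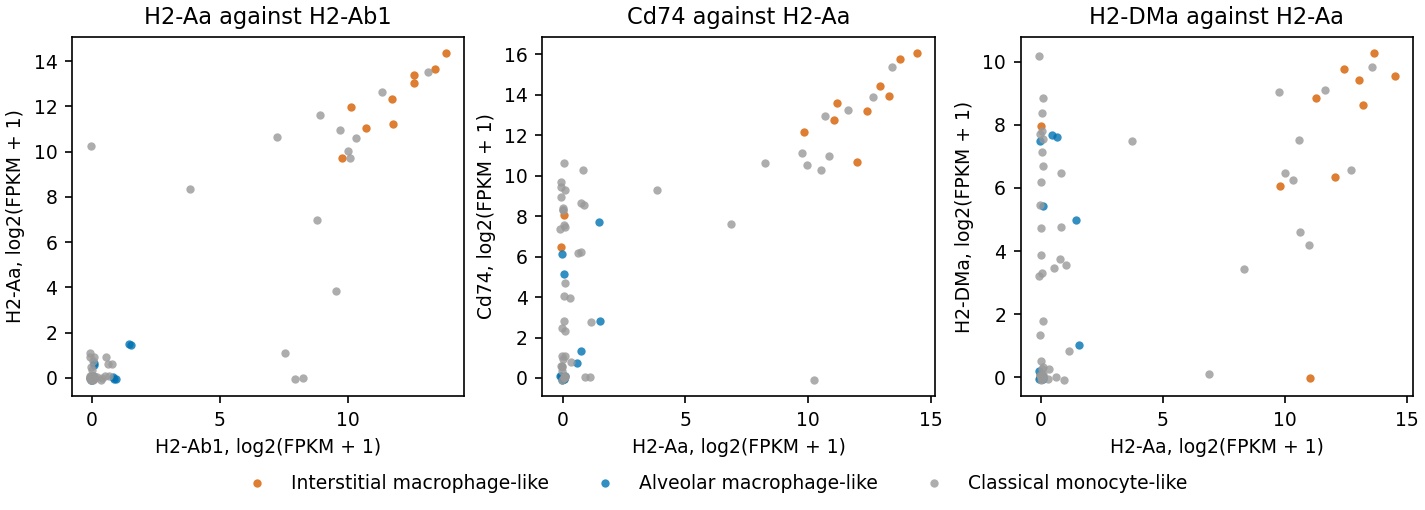
H2-Aa against H2-Ab1 (left), Cd74 against H2-Aa (middle) and H2-DMa against H2-Aa (right), each as log2(FPKM + 1), with 1 point per cell coloured by cluster and shifted slightly at random so that points at 0 can be seen. The left panel falls into a low and a high set (rho 0.75), while the column at H2-Aa of 0 spreads widely for Cd74 (rho 0.65) and for H2-DMa (rho 0.44).

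Among cells that expressed both genes at 100 FPKM or more, the proportions were loosely kept. The ratio of H2-Aa to H2-Ab1 had a median of 1.35 in 18 cells, with quartiles of 1.08 and 2.095 and a range of 0.268 to 10.1. H2-Eb1 was below H2-Aa in each of 15 cells, with a median ratio of 0.308 (0.0628 to 0.634). Cd74 exceeded H2-Aa in 16 of 19 cells, with a median ratio of 2.60 (0.419 to 5.12). Within those subsets the levels were still correlated, with rho 0.83 for H2-Aa and H2-Ab1 (r 0.78) and 0.88 for Cd74 and H2-Aa (r 0.89). The 2 editor subunits, both at 100 FPKM or more in 9 cells, had a median ratio of H2-DMa to H2-DMb1 of 1.41 and a rho of 0.17 (r 0.38).

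The core level had little relation to depth. Its rho was 0.09 with mouse fragments (r 0.17), -0.03 with genes detected (r 0.11), 0.06 with mouse fragments divided by spike-in fragments (r 0.16) and -0.02 with the sum of mouse FPKM (r 0.02). For single members the largest rho with mouse fragments was 0.29, for H2-DMb1 (r 0.19).

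To place the genes among cell types, cells were clustered without the class II genes and the other antigen presentation lists, 45 genes in all. Of 3 clusters, an interstitial-macrophage-like cluster held 11 cells (15.1%, 7.77 to 25.4), an alveolar-macrophage-like cluster 12 (16.4%, 8.79 to 26.95) and a classical-monocyte-like cluster 50 (68.5%, 56.6 to 78.9). The complement genes C1qa, C1qb and C1qc named the 11 cells. Plac8, Ly6c2, Hp, S100a4 and Ccr2 named the 50, and Ear2, Plet1, Atp6v0d2, Car4, Chil3 and Ear1 the 12. The separation was weak, with a mean silhouette of 0.250 for 3 clusters and 0.242 for 2. Interstitial-macrophage-like cells had a median of 2475 genes detected, alveolar-macrophage-like cells 2739.5 and classical-monocyte-like cells 2168.5, and the part of this in the differences below was not tested. The 11-cell cluster took its name under some settings only, as given in the closing section.

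Class II was highest in the interstitial-macrophage-like cells. Their core level ran from 1.65 through a median of 11.75 to 14.08, and 9 of 11 cells were at 8 or more, against 7 of the 62 other cells, all in the classical-monocyte-like cluster. The mean core level was 10.2 ± 4.30 (SD over 11 cells), 7.46 log2 units above the mean of 2.70 in the other cells. Cells 37 and 50 of this cluster were low, at 1.646 and 2.004, with Cd74 at 94.9 and 258 FPKM and the 3 chains at 0. They differed in their markers at 10 FPKM or more. Cell 50 held 10 of the 12 interstitial macrophage markers. Cell 37 held 0 of them and 8 of the 10 classical monocyte markers, which goes against the name of its cluster, and it had the highest values of the cell cycle genes Top2a (321 FPKM) and Cdk1 (175 FPKM). Among the 9 high cells, cell 42 held 7 classical monocyte markers and 2 interstitial macrophage markers, and cell 30 held 7 and 4. Their markers also go against the name of the cluster. The other high cells held more interstitial macrophage than classical monocyte markers.

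In these 11 cells H2-Aa was detected in 9 (0 to 22039 FPKM, median 4128), against 16 of the 62 others. H2-Ab1 was detected in 9 (0 to 14233 FPKM, median 3153), against 16 of the others, and H2-Eb1 in 9 (0 to 4414 FPKM, median 1232), against 12. Cd74 was detected in 11 of 11 (94.9 to 64822 FPKM, median 9897), against 41 of 62. Both sets held cells with and without the chains, so the clusters overlapped. The mean log2(FPKM + 1) was higher by 7.99 for H2-Aa, 7.47 for H2-Ab1, 7.37 for Cd74, 6.99 for H2-Eb1, 4.17 for H2-DMb1 and 3.28 for H2-DMa. These 6 genes passed the filter of 8 cells and all 6 were higher by at least 1 log2 unit, beside 14.2% of the 6151 genes, and 0 of 6 were lower by as much, beside 6.7%. H2-DMb2 and Ciita, not among those tested, were higher by 1.04 and 1.4999.

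The alveolar-macrophage-like cells held almost no class II. Their core level ran from 0 through a median of 0.26 to 2.70, and 0 of 12 were at 8 or more, where 3 cells, the limit a count of 0 allows, would be 25%. H2-Aa did not pass 1.91 FPKM in these cells, H2-Ab1 2.12 and H2-Eb1 1.16, whereas the highest values among the 61 others were those of cells 11 and 95 above. Cd74 was detected in 5 of 12 (0 to 217 FPKM, median 0.361), against 47 of the 61 others. H2-DMa was detected more often than the chains, in 6 of 12 (0 to 207 FPKM), against 41 of 61. H2-DMb1 was detected in 3 of 12, against 27 of 61, and Ciita and H2-DMb2 in 0 of 12. For all 6 tested genes mean log2(FPKM + 1) lay at least 1 unit below that of the other cells, beside 9.49% of genes, and 0 of 6 lay at least 1 unit above, beside 18.2%. The differences were -5.01 for Cd74, -3.55 for H2-Aa, -3.42 for H2-Ab1, -2.76 for H2-Eb1, -2.01 for H2-DMb1 and -1.53 for H2-DMa. Counted by markers instead, 18 cells held at least 3 of the 12 alveolar macrophage markers at 10 FPKM or more. Of these, 13 had all 3 chains under 1 FPKM. Cells 13 and 64, outside this cluster, held 5 of the markers and had all 3 chains at 100 FPKM or more. Cell 38, also outside it, held 3 of the markers, with H2-Aa at 1061 FPKM, H2-Ab1 at 1034 and H2-Eb1 at 26.6.

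The classical-monocyte-like cells were mixed. Their core level ran from 0 through a median of 2.04 to 13.58, with 37 of 50 under 3 and 7 at 8 or more. Cd74 was detected in 36 of 50 (0 to 38964 FPKM, median 113), against 16 of the 23 others, while each I-A chain was detected in 14 of 50, against 11 of 23. Of the 14 cells with Cd74 at 100 FPKM or more and no chain, 13 were in this cluster and 1 among the interstitial-macrophage-like cells. The cluster also held 33 of all 45 cells with the 3 chains under 1 FPKM. All 7 cells with discordant chains were also in this cluster. Mean log2(FPKM + 1) was lower by at least 1 unit for 5 of the 6 tested genes, beside 14.6% of genes, and higher by as much for 0 of 6, beside 5.46%. The difference was -2.48 for H2-Aa and -0.97 for H2-DMa, which did not pass. The core level differed by -2.08 from the other cells, and this sign changed under settings that put 6 or all of the 11 cells into the cluster. The cluster's name covers cells of other kinds: cells 57 and 93 held 8 of 8 non-classical monocyte markers and cells 27, 38 and 41 held 6. Their core levels were 0.17, 0.64, 1.98, 8.85 and 2.09 for cells 57, 93, 27, 38 and 41, so cell 38 was among the 7 at 8 or more.

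**Figure D4:**
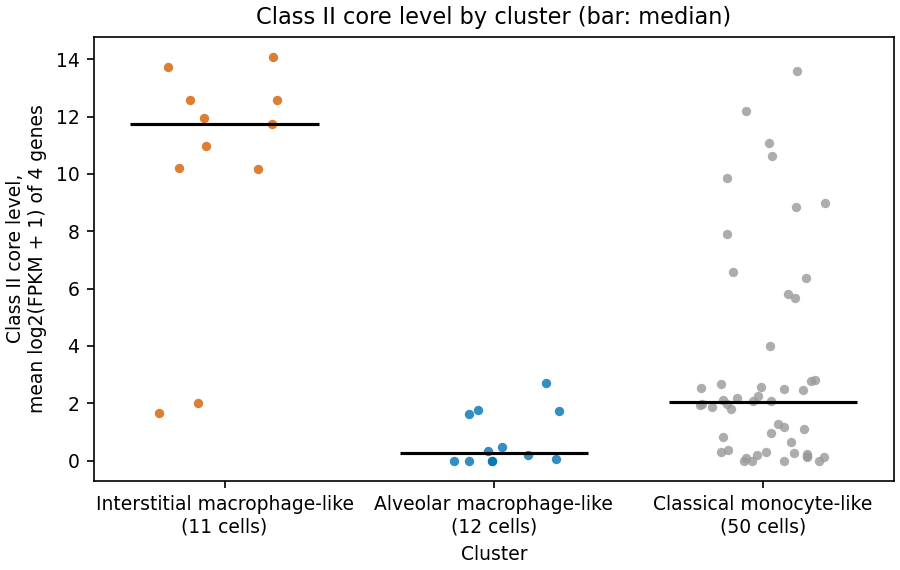
Class II core level, the mean log2(FPKM + 1) of Cd74, H2-Aa, H2-Ab1 and H2-Eb1, in each cell of the 3 clusters, with the median as a bar (11.75 for interstitial-macrophage-like, 0.26 for alveolar-macrophage-like and 2.04 for classical-monocyte-like cells). The classical-monocyte-like cluster holds 7 cells at 8 or more, and 2 interstitial-macrophage-like cells lie low.

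Of the 15 cells with all 3 chains at 100 FPKM or more, 9 lay in the interstitial-macrophage-like cluster, cells 30 and 42 among them, and 6 in the classical-monocyte-like one. These 6 cells differed in their other genes. Cell 16 had 2128 FPKM of the monocyte surface gene Ly6c2, 624 of the chemokine receptor gene Ccr2 and 502 of C1qb. Cells 13, 22 and 48 also held Ly6c2, at 388, 453 and 263 FPKM. Cell 64 had 1003 FPKM of Ear2 and no Ly6c2. Cell 95 had 4429 FPKM of Cd209a, a lectin of monocyte-derived dendritic cells, 257 of Ccr2 and 932 of Ear2, with no Ly6c2. At 10 FPKM or more it held 4 of the 12 conventional dendritic cell markers, the most of any cell. It held 2 of the 10 classical monocyte markers, which goes against the name of its cluster.

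Markers of the professional antigen-presenting cells were sparse. For B cells 6 of 7 measured markers, among them Cd79a, Ms4a1 and Pax5, were at 0 in all 73 cells, where 3 cells, the limit a count of 0 allows for cells with a detected transcript, would be 4.11%. The remaining marker, Cd79b, was detected in 3 cells, with a highest value of 650 FPKM in cell 14. All 3 had every class II chain under 1 FPKM. For conventional dendritic cells Zbtb46, Ccr7 and Fscn1 were at 0 in all cells, and the list's mean log2(FPKM + 1) per cell ran from 0 to 2.42 with a median of 0.02. At least 3 of its 12 markers reached 10 FPKM in 3 cells, all among the 15 with all 3 chains high. Cells 25 and 84 of these were in the interstitial-macrophage-like cluster, and cell 95 was in the classical-monocyte-like one. Flt3 reached 189 FPKM in cell 22, and the list level had a rho of 0.27 with the core level (r 0.40). The part of dendritic cells in the class II levels was not tested. Csf1r was detected in all 15 of these cells and Emr1 in 12.

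Other parts of the pathway were set beside the core level gene by gene. Over the 6145 genes that are no members, 1.42% had a rho of at least 0.3 with the core level and 1.14% a rho of at most -0.3, with a median of 0.00. With shares this low, a count of 0 in a short list is near that of all genes and sets no list apart. The list of endosomal processing genes had 0 of 6 past either mark and a median rho of 0.11. Ctss, the protease that trims the invariant chain, was detected in 72 cells at 1431 ± 1107 FPKM and had a rho of 0.15 (r 0.13). Ifi30, the lysosomal thiol reductase, was detected in 59 cells with a rho of 0.17 (r 0.18). Ctsl, a related protease, had a rho of -0.29 (r -0.17). Of the 45 cells without class II chains, 45 held Ctss, 44 Ctsb, 35 Ifi30, 29 Lgmn, 26 Ctsd and 24 Ctsl.

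The 7 promoter-binding factors were scarce, each found in 4 to 19 cells. Of the 5 in at least 8 cells 0 passed either mark, with a median rho of 0.03. Creb1 was detected in 19 cells (rho 0.00, r -0.05) and Nfyc, an NF-Y subunit, in 13 (rho 0.02, r -0.03). Of the interferon gamma axis, the main known inducer of Ciita, 0 of 7 tested genes passed either mark, with a median rho of 0.09. Ifngr1, a receptor chain, was detected in 67 cells (rho 0.21, r 0.09), and Ifng itself was at 0 in all cells.

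Of 6 genes for costimulation and class II turnover 2 passed the upper mark, beside 1.42% of all genes, and 0 the lower, with a median rho of 0.15. They were Cd86 (rho 0.39, r 0.37), a ligand of CD28, and Cd40 (rho 0.32, r 0.35), the receptor of CD40 ligand. Cd86 was detected in 25 cells, 11 of them among the 15 with all 3 chains high. Cd83, which stabilises surface class II, was detected in 46 cells (rho 0.25, r 0.37). March1, the ligase that turns class II over, was detected in 19 (rho 0.06, r 0.03).

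Class I genes served as the other presentation route, and 1 of 5 tested genes passed the upper mark, with a median rho of 0.08. B2m, the class I light chain, was detected in all 73 cells at 2330 ± 1337 FPKM (rho 0.33, r 0.23), and H2-D1, a heavy chain, also in all 73 (rho 0.06, r 0.08). Class I was thus present in every cell, including the 45 without class II chains. Of 6 tested cell cycle genes 0 passed either mark, with a median rho of 0.03. The remaining class II genes of the locus were almost silent: H2-Oa, a chain of the H2-DM inhibitor, was detected in cell 95 only, at 82.6 FPKM, and H2-Eb2 in cell 48 only, at 25.4 FPKM.

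The genes most like the core level were Tmem176b (rho 0.68, r 0.74), Cxcl16 (0.60, r 0.71), Tmem176a (0.57, r 0.69), Marcks (0.56, r 0.50), C1qa (0.52, r 0.59), Aif1 (0.50, r 0.57), Abca9 (0.48, r 0.36), Zmynd15 (0.47, r 0.46), C1qc (0.45, r 0.55) and Sdc4 (0.43, r 0.47), over 73 cells. Tmem176b and Tmem176a encode related membrane proteins of the endosomal system. Tmem176b was detected in 32 cells (169 ± 331 FPKM), among them all 15 with the 3 chains high and 9 of the 45 with no chain. Of the interstitial-macrophage-like cells 10 of 11 held it, of the alveolar-macrophage-like cells 0 of 12, and 22 of the 50 that were classical-monocyte-like. Cxcl16, a membrane-bound chemokine, was detected in 20 cells, 12 of them among the 15. Marcks, an actin-binding substrate of protein kinase C, was detected in 56 cells and again in 0 of 12 alveolar-macrophage-like cells.

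C1qa and C1qc, chains of the complement component that starts the classical cascade, were narrower than class II. C1qa was detected in 10 cells, 8 of them among the 15 with all 3 chains high, so 7 of those 15 lacked it. C1qa is also a gene that named the interstitial-macrophage-like cluster. Of the 8 tested interstitial macrophage markers 6 had a rho of at least 0.3, with a median of 0.40, while 0 of 10 classical monocyte markers (median -0.07) and 0 of 6 tested non-classical monocyte markers (median -0.06) passed either mark, and 3 of 11 alveolar macrophage markers had a rho of at most -0.3 (median -0.23). At the other end stood Chil3 (rho -0.45, r -0.38), a chitinase-like protein of alveolar macrophages, Olr1 (-0.42, r -0.36), a receptor of oxidised lipoprotein, Topors (-0.40, r -0.22), a ubiquitin and SUMO ligase, Lgals8 (-0.40, r -0.32), a galectin, and Tmsb10 (-0.40, r -0.34), an actin-binding thymosin. Olr1 and Lgals8, named for their low rho, were detected in 20 and 22 cells, and in 0 of the 15 with all 3 chains high.

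**Figure D5:**
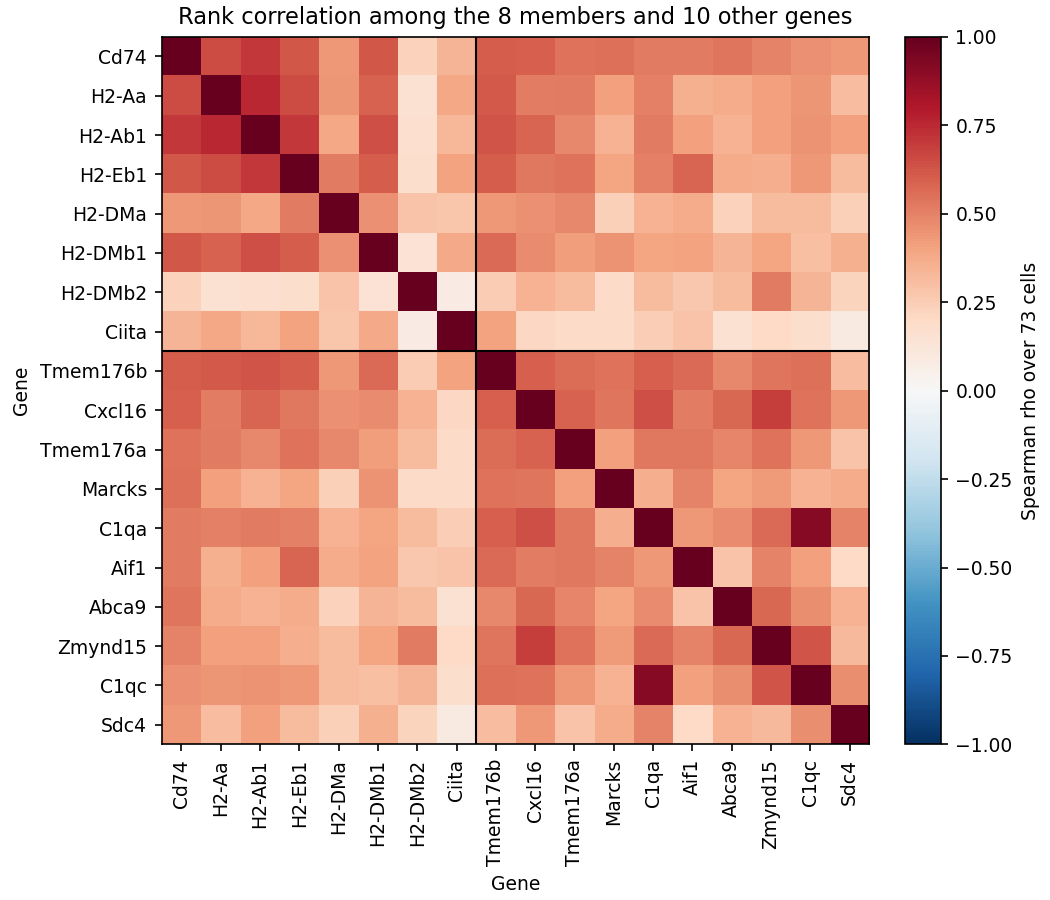
Spearman rho over 73 cells among the 8 class II presentation genes (above and left of the lines) and the 10 other genes with the highest rho to the class II core level. H2-DMb2 and Ciita, detected in 3 and 7 cells, are the palest rows among the 8, and C1qa with C1qc (rho 0.91) is a darker pair than any within the class II set.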

How the data were processed

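Single-cell libraries were made with SMARTer and Nextera XT chemistry, per the labels' protocols. The submitters' processing notes name the mm10 build and Cuffnorm, Cufflinks 2.2.1, TopHat2 2.1.0 and CASAVA 1.8. The deposited FPKM table was used as given by the authors. The deposited second table holds a signal, fragment counts the authors had scaled per cell. Of 99703 low values 99.6% lay within 0.1 of a whole step, which gave estimated fragments, and no count model was fitted. Spike-in rows (100, of which 1 held values) were removed. No 2 cells had identical columns.

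Levels were log2(FPKM + 1). Clustering used the 1000 most variable genes detected in at least 8 cells, 10 principal components and Ward linkage with 2 to 6 clusters (scikit-learn 1.9.0, scipy 1.17.1). The highest mean silhouette with at least 5 cells in every cluster decided the cut, and a cluster was named where 3 of its 10 leading genes were markers of 1 list. No doublet caller was run. The genes named were the members, the listed genes and the 10 highest and 5 lowest by rho with the core level. The members and lists were chosen with earlier results of these data known. Genome positions came from GENCODE M21 and promoters from RefSeq. Correlation, split and difference measures were tested on simulated data.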

Additional observations from a re-analysis of the deposited data

How the results depend on the processing

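The number of cells with all 4 core genes detected stayed between 15 and 20 under the 7 alternatives tried, beside 18. The number with none, 19, was 34 at 100 FPKM and 8 at any value above 0, which follows from the threshold, and 17 to 26 otherwise. The number of cells with a core gene between 1 and 100 FPKM, 22, was 12 for 10 to 100 and 44 for 1 to 1000 FPKM. The median rho of the 6 core pairs, 0.68, was 0.81 as Pearson r and 0.78 as Pearson r with a pseudocount of 0.1. As Spearman rho it was 0.65 to 0.76 under the other alternatives. The lowest of these, 0.65, left out the 2 cells of highest core level. That setting, the count at 10 or more fragments and the cluster differences and the widest gap without cells 2 and 54 were chosen after seeing the data.

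The core level of alveolar-macrophage-like minus other cells, -3.68, ran from -4.49 to -2.16 and kept its sign. With rescaled FPKM, which gave -2.16, that cluster held 15 cells, 1 of them with all 3 chains at 100 FPKM or more. That of interstitial-macrophage-like minus other cells, 7.46, was 7.51 to 8.92 under the 3 alternatives that kept the same 11 cells. Only 500 variable genes gave an interstitial-macrophage-like cluster anew among the other clusterings run, with 7 of the 11 cells and a difference of 7.67. With 2000 variable genes or rescaled FPKM 2 clusters were found, and the 11 cells joined the classical-monocyte-like one. With k-means an unnamed cluster held 8 of them and 3 other cells, and 8 of its 11 cells were at a core level of 8 or more. With 20 components an unnamed cluster held 5 of them, 4 at that level. No cut was found without the filter on low genes. Classical-monocyte-like minus other cells, -2.08, changed sign to 3.68 with 2000 variable genes, 0.61 with 20 components and 2.16 with rescaled FPKM, where the cluster held most or all of the 11 cells.

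With 1 mouse, no spread between animals is known. Thinning to 1 depth left Ciita at 7 cells and H2-DMb2 at 3. No paired analysis was possible because there is 1 group and no test.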
